A study of Mus musculus with 8 samples.

Results

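The genes described here are Clca1, Clca2, Ano1, Ano6, Ano10, Clcn3, Clcn5 and Bsnd, which encode chloride channels or the proteins that work with them. They were listed by symbol with earlier results of these data known, among them the rise of Clca1 that the paper reported. They are 8 of the 22609 genes counted by RNA-Seq of the mouse renal cortex. RNA was taken from untreated male C57BL6 mice, 4 of them aged (30 months by the labels) and 4 young (about 5 months), with 1 library per mouse, so a value stands for a whole cortex of mixed cell types from 1 sex and 1 strain. The RNA-Seq methods of the paper give a somewhat higher mean age for the aged mice than the labels do. The comparison asked which mRNAs differ with age in the renal cortex, and here in which of the cortex's chloride pathways they lie.

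Chloride crosses kidney cell membranes through several unrelated families of proteins. CLCA proteins are secreted or anchored proteases, not channels. A fragment of human CLCA1 holds TMEM16A, the calcium-activated chloride channel encoded by Ano1, at the cell surface. The anoctamins, the family of TMEM16A, include both channels and scramblases that move phospholipids between the leaflets of a membrane. The CLC family includes plasma membrane channels as well as exchangers of chloride for protons in endosomes and lysosomes. The kidney is known for loss of the exchanger ClC-5 (Clcn5), which impairs protein uptake in the proximal tubule, and for loss of barttin (Bsnd), a subunit needed to return chloride to the blood from the thick limb and the distal nephron.

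Clca1 and Clca2 need to be told apart before their counts are read, since their coding sequences are near copies. Both lie on the minus strand of chromosome 3, in a cluster of 7 Clca genes. The counts were made on mm9 (NCBIM37), and GENCODE places its genes on that build. Clca1 (ENSMUSG00000056025.6) covers chr3:144392641-144423941 with 14 exons and Clca2 (ENSMUSG00000028262.8) covers chr3:144459523-144482458. The 2709 coding bases of both genes aligned without a gap and differed at 79 positions, so they were 97.1% identical. The longest run without a difference was 242 bases, in exons 6 and 7. The stretch with the most differences, coding bases 558 to 647 in exon 5, is printed 5′ to 3′ on the coding strand because a read pair from it can be assigned. It lies at chr3:144418206-144418295 in Clca1 and chr3:144476929-144477018 in Clca2, and capitals mark the 13 bases at which the genes differ.
Clca1: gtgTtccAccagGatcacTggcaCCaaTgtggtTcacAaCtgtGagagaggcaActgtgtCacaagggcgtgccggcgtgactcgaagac
Clca2: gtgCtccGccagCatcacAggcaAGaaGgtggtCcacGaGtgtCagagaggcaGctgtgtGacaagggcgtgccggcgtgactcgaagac
Of the coding windows of 100 bases, the read length, 11.3% held no difference between the genes. Over its whole transcript, 12.1% of Clca1 windows had a copy elsewhere in mm9 at 98% identity or more, against 10.2% for Clca2 and 0% for the other 6 genes. The count tables set apart alignments that were not unique, 34.3% to 39.1% of the entries of a library, which were counted on no gene. How many of them came from the shared stretches is not given in the sources used here.

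The symbols are those of the mm9 gene set and have since been reassigned. In the gene table of GRCm38.p6 the gene counted here as Clca1 is Clca3a1, the gene counted as Clca2 is Clca3a2, and Clca1 is now the name of the gene counted here as Clca3. The last of these, once called gob-5, is the mouse counterpart of human CLCA1. It had 3 counts over the 4 aged libraries and 0 over the 4 young ones, so the signal described below belongs to the gene counted as Clca1.

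Between 14820804 and 19821429 read pairs per library were counted on genes. Values are given as CPM, a gene's counts scaled to the total of its library, after TMM normalization. The floor taken for a count of 0 was 3 counts, equal to 0.151 CPM in the deepest library and 0.202 CPM in the shallowest, and it allows for counting error alone. A gene was called at a Benjamini-Hochberg adjusted p below 0.05 in edgeR's quasi-likelihood test and a fold change above 1.5. By that rule 287 of 13944 genes tested were called, or 2.06%. The libraries expressed the cortical markers Slc34a1 (proximal tubule), Umod (thick limb) and Podxl (podocyte) at 201 CPM or more in each. Aged mouse 1 stood apart at 71.5 on the first principal component, which carried 48.1% of the variance, while the other libraries lay between -26.2 and 16.3. Fitted values without it are therefore given beside each of the 8 genes that was tested.

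Of the 8 genes, 7 passed the filter on low counts and 1 was called, Clca1, which rose 3.31-fold in aged mice (95% interval 2.70 to 4.05). The share called over all genes was 2.06%, and 1.17% were called higher. The other 6 genes tested lay between a log2 fold change of -0.34 (Clcn5) and 0.45 (Ano1), and none reached an adjusted p of 0.05. Without the adjustment, Clca1, Clcn5 and Bsnd had a p below 0.05, as did 25.5% of all genes, and Clcn5 and Bsnd did so in the lower direction, as did 12.1%. The groups did not overlap for 2 of the 7, beside 18.9% of all genes tested. Clca1 was higher without overlap (8.85% of all genes) and Clcn5 lower, as were 1396 of the 13944. The median log2 fold change of the 7 was -0.02, and that of all genes tested was 0.03.

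**Figure D1:**
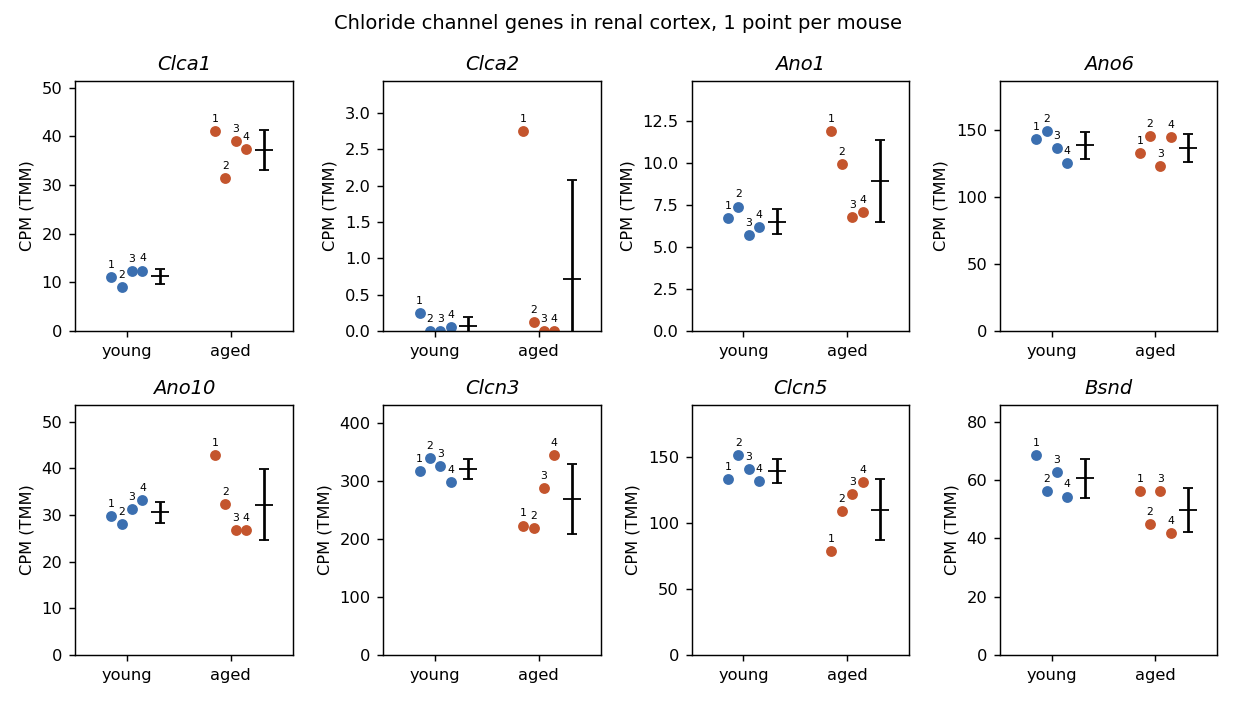
CPM after TMM scaling (y axis, linear from 0) of each of the 8 genes in the 4 young and 4 aged mice, 1 numbered point per mouse, with the mean and SD of each group as a bar (for Clca2 the lower end of the SD bar is cut at 0). The Clca1 values of the aged mice (31.4 to 41.1 CPM) all lie above those of the young mice (9.09 to 12.5 CPM), while Clca2 is seen almost only in aged mouse 1.

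Clca1 was counted 837, 483, 731 and 686 times in aged mice 1 to 4, which is 41.1, 31.4, 39.0 and 37.3 CPM. In young mice 1 to 4 it was counted 181, 172, 182 and 211 times, which is 11.1, 9.09, 12.4 and 12.5 CPM. Every aged mouse was above every young mouse, and the lowest aged value exceeded the highest young value by more than the spread within either group. Means were 37.2 ± 4.17 CPM for the aged and 11.3 ± 1.57 CPM for the young group (± SD, n = 4 each). This was a log2 fold change of 1.73 (SE 0.13, edgeR adjusted p = 0.00143), and Clca1 ranked 2 of 13944 by p. It was 1.68 without aged mouse 1 (adjusted p = 0.0027). Over every other fit tried it lay between 1.64 and 1.84, and the call held in each of them. Rank 1 by p was Arntl, a core clock gene named after its values were seen. Arntl had 22.2 to 38.5 CPM in aged and 4.28 to 5.55 CPM in young mice. The hour at which the kidneys were taken is not given in the sources used here, and its part in these values was not tested.

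Summed CPM of the 8 proximal tubule markers listed for this comparison, none of which was called, ran from 8682 to 16510 in aged and from 14990 to 17118 in young mice. Aged mouse 1, with the highest Clca1, had the lowest of these sums. Fewer cells of a type and less RNA per cell cannot be told apart in whole cortex.

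Clca2 and its cluster neighbours were close to absent. Clca2 was counted 56 times in aged mouse 1, 2 times in aged mouse 2 and 0 times in aged mice 3 and 4. In young mouse 1 it was counted 4 times, in young mouse 4 once, and in young mice 2 and 3 not at all. Its level was therefore set by a single animal, 2.75 CPM in aged mouse 1 against at most 0.246 CPM elsewhere, and it did not pass the filter on low counts. In aged mice 3 and 4, which had 731 and 686 counts on Clca1, none fell on Clca2. Among the other 5 genes of the cluster, Clca4, Clca6 and AI747448 had 0 counts in all 8 libraries, and Clca5 had 5 counts in aged and 10 in young mice. Clca1 thus supplied nearly all of the CLCA signal, whose summed level per exon length (FPKM, CPM per kilobase of exon) was 9.76 ± 1.32 FPKM with age and 2.95 ± 0.416 FPKM in young cortex (± SD, n = 4 each).

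Markers of urothelium, the lining of the renal pelvis, were highest in the same animal as Clca2. The CPM of the 5 markers (Upk1a, Upk1b, Upk2, Upk3a and Krt5) summed to 64.8 in aged mouse 1, to between 0.801 and 5.91 in the other aged mice and to between 0.340 and 4.37 in young mice, of which young mouse 1 was the highest. Upk1a, a uroplakin and the only marker of the list with enough counts to be tested, had 23.6 CPM in aged mouse 1 and at most 2.47 CPM in any other library (log2 fold change 2.80, SE 1.24, edgeR adjusted p = 0.196), and without aged mouse 1 its log2 fold change was 0.23 (adjusted p = 0.873). None of the 5 was at 0 in all libraries, and Krt5 was at 0 in aged mice 3 and 4 and in young mice 2, 3 and 4. Clca1 was 41.1, 31.4, 39.0 and 37.3 CPM in aged mice 1 to 4. The urothelium sum of these mice, in the same order, was 64.8, 5.91, 0.801 and 0.871 CPM. The part of urothelium content in the values of Clca1 and Clca2 was not tested. Aqp2, the water channel of principal cells, was also highest in aged mouse 1, at 271 CPM against 79.8 to 138 CPM elsewhere.

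**Figure D2:**
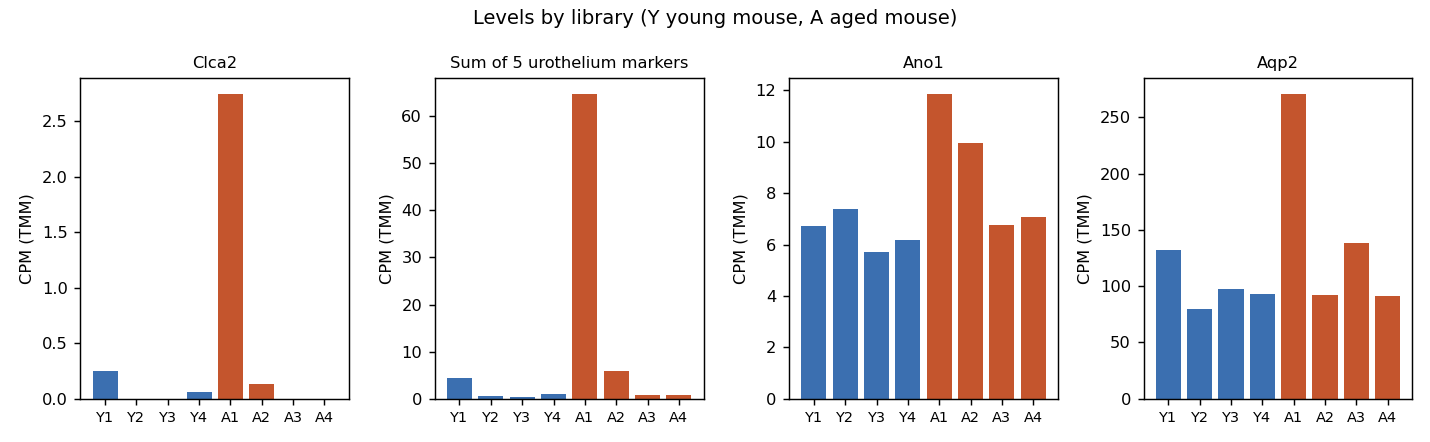
CPM after TMM scaling (y axis, linear from 0) in each of the 8 libraries (Y young mouse, A aged mouse, bars for single libraries) of Clca2, the sum of 5 urothelium markers, Ano1 and Aqp2, 1 of 6 principal cell markers. Aged mouse 1 is the highest library in each panel, with 2.75 CPM of Clca2 and 64.8 CPM of urothelium markers.

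Of the anoctamins, Ano1, Ano6 and Ano10 were all expressed and none was called. Ano1 encodes TMEM16A, the calcium-activated channel that human CLCA1 stabilizes, and lies at chr7:151774454-151937879. Its level was 11.9, 9.94, 6.78 and 7.08 CPM in aged mice 1 to 4 and 6.71, 7.40, 5.71 and 6.20 CPM in young mice 1 to 4. Aged mice 1 and 2 were above every young mouse, and aged mice 3 and 4 were within the young range. Its log2 fold change was 0.45 (SE 0.20, 95% interval -0.00 to 0.91, edgeR adjusted p = 0.198) and 0.28 without aged mouse 1 (adjusted p = 0.331). The interval included no change and a 1.88-fold rise.

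Set against Ano1 within each library, Clca1 was higher in every aged than in every young mouse. Whether the product of the gene counted as Clca1, now Clca3a1, acts on TMEM16A as human CLCA1 does was not tested. Per Ano1 count there were 3.46, 3.16, 5.76 and 5.28 Clca1 counts in aged mice 1 to 4. The young mice, in the same order, had 1.66, 1.23, 2.17 and 2.01. The groups did not overlap, with means of 4.41 ± 1.30 and 1.77 ± 0.416 (± SD, n = 4 each). The log2 ratio was 1.30 higher in aged mice (two-sided exact permutation test over 70 orders, p = 0.0286, the smallest these groups allow). Clca1 alone already separated the ages and Ano1 changed far less, so this p restates the rise of Clca1. Taken against Ano6, Ano10, Clcn3, Clcn5 and Bsnd instead, which is a description without a test, the difference in log2 ratio lay between 1.68 and 2.09.

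**Figure D3:**
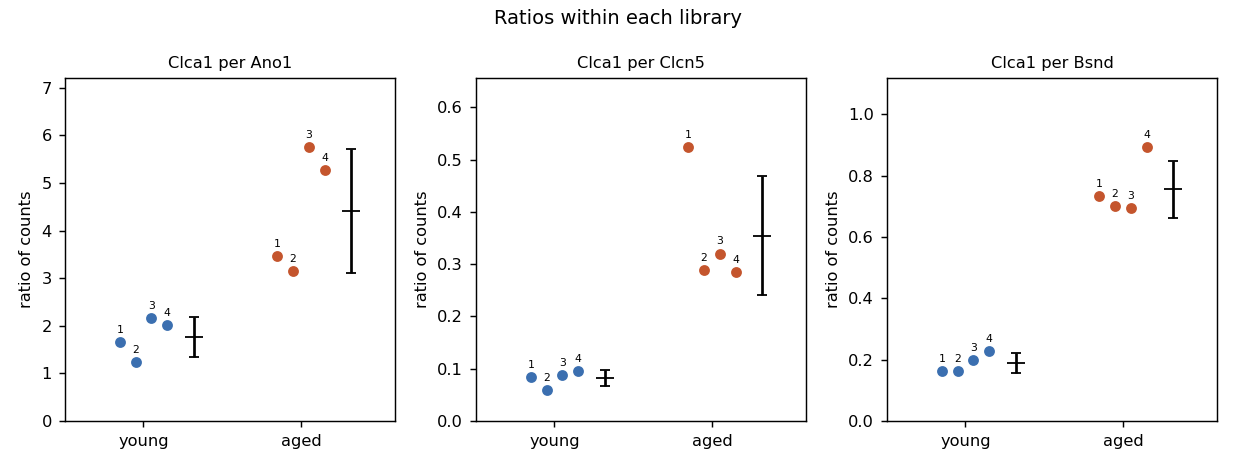
Ratio of counts within each library (y axis, linear from 0) for Clca1 per Ano1, Clca1 per Clcn5 and Clca1 per Bsnd, with 1 numbered point per mouse and the mean and SD of the 4 mice of each age. Aged mice lie above young mice in each panel, with means of 4.41 and 1.77 per Ano1, 0.355 and 0.0815 per Clcn5, and 0.755 and 0.188 per Bsnd.

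Ano6, at chr15:95621274-95805180, encodes a calcium-activated phospholipid scramblase that also conducts ions. It ran from 123 to 145 CPM in aged and from 126 to 149 CPM in young mice, with the groups almost fully overlapping. Its log2 fold change was -0.02 (SE 0.09, 95% interval -0.22 to 0.18, edgeR adjusted p = 0.894), and the sign turned under other scalings, to 0.09 with library size alone. Without aged mouse 1 it was -0.0082.

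Ano10, at chr9:122084997-122203492, is an intracellular member of the family. It stood at 42.9, 32.3, 26.8 and 26.7 CPM in aged mice 1 to 4 and between 27.96 and 33.3 CPM in young mice. Aged mouse 1 was above, and aged mice 3 and 4 were below, all young mice. It had a log2 fold change of 0.07 (SE 0.15, edgeR adjusted p = 0.783), which turned to -0.10 without aged mouse 1.

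Across the whole family, 6 of the 10 anoctamins in the table were tested and none was called. Ano8 was among the 3 with the highest level per length, with 9.72 ± 1.07 CPM for the aged and 10.9 ± 0.651 CPM for the young group (± SD, n = 4 each). Ano9, a gene named after its values were seen, was the only one of the 6 whose groups did not overlap, at 4.55 to 5.17 CPM in aged and 2.65 to 4.37 CPM in young mice (log2 fold change 0.52, SE 0.19, edgeR adjusted p = 0.144). The summed level of the 10 was 47.1 ± 3.64 FPKM with age and 46.3 ± 1.74 FPKM in young cortex (± SD, n = 4 each), a difference smaller than the spread between mice.

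Among the CLC exchangers, Clcn3 and Clcn5 had lower means in aged mice, and neither was called. Clcn5 encodes ClC-5 of proximal tubule endosomes and lies at chrX:6730936-6896484. Its level was 78.4, 109, 122 and 131 CPM in aged mice 1 to 4 and 133, 152, 141 and 132 CPM in young mice 1 to 4. The groups did not overlap, although the highest aged value and the lowest young value were 130.9 and 131.7 CPM. Clcn5 had a log2 fold change of -0.34 (SE 0.15, 95% interval -0.67 to -0.01, edgeR adjusted p = 0.188). Without aged mouse 1 it was -0.21 (adjusted p = 0.164).

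The partners of ClC-5 in endocytosis had their lowest sum, 6149 CPM, in the animal with the lowest Clcn5. Of 6 genes of protein uptake listed beside Clcn5, none was called, and their median log2 fold change was -0.15. Lrp2, which encodes megalin, the main receptor of this pathway, had 3859 CPM in aged mouse 1, 8727 to 10573 CPM in the other aged mice and 9392 to 11157 CPM in young mice. Its log2 fold change was -0.34 (SE 0.28, edgeR adjusted p = 0.473) and -0.10 without aged mouse 1. In that library the summed proximal tubule markers were 0.603 times the mean of the other aged mice. The part of proximal tubule content in the values of Clcn5 was not tested.

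Clcn3, at chr8:63389186-63462097, encodes an endosomal exchanger of the same branch. It stood at 223, 219, 287 and 345 CPM in aged mice 1 to 4 and at 317, 339, 326 and 298 CPM in young mice 1 to 4. Aged mice 1, 2 and 3 were below every young mouse and aged mouse 4 was above all of them. Clcn3 had a log2 fold change of -0.25 (SE 0.15, 95% interval -0.59 to 0.08, edgeR adjusted p = 0.305) and -0.17 without aged mouse 1.

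The third exchanger of that branch, counted as Clcn4-2 and now called Clcn4, was the only other gene of the chloride channel lists to pass an adjusted p of 0.05. It had 100, 116, 117 and 123 CPM in aged mice and 156, 148, 150 and 145 CPM in young mice, with no overlap. It decreased by 23.9% (log2 fold change -0.39, SE 0.08, edgeR adjusted p = 0.0417), less than the fold change of 1.5 needed for a call. At an adjusted p alone 2.95% of all genes passed, 1.44% in the lower direction. The adjusted p ran from 0.00029 to 0.131 over the other fits and was above 0.05 in 10 of 17 of them. These were the fits without aged mouse 2 or 3, any single young mouse, or aged mouse 1 and young mouse 1 together (both mice 1), and those with library size only (0.0579), no filter on low counts (0.0522) or the replicate block (0.0963). Without aged mouse 1 the log2 fold change was -0.34 (adjusted p = 0.0258). Clcn6, the exchanger of late endosomes, was named after its values were seen. It was 28.02 to 34.9 CPM in aged and 21.1 to 26.7 CPM in young mice (log2 fold change 0.46, SE 0.11, edgeR adjusted p = 0.0542), and the adjusted p was 0.0299 without aged mouse 1. Over the other fits the adjusted p of Clcn6 ran from 0.00762 to 0.162 and was below 0.05 in 5 of 17. Clcn4-2 and Clcn6 therefore lay on opposite sides of 0, each without overlap between ages.

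Bsnd encodes barttin and lies at chr4:106156061-106164888. It stood at 56.1, 44.8, 56.2 and 41.8 CPM in aged mice 1 to 4 and at 68.6, 56.2, 62.8 and 54.3 CPM in young mice 1 to 4. Aged mice 2 and 4 were below every young mouse, and aged mice 1 and 3 were within the young range. This gave a log2 fold change of -0.28 (SE 0.12, 95% interval -0.56 to -0.00, edgeR adjusted p = 0.194) and -0.34 without aged mouse 1 (adjusted p = 0.122).

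Markers of the segments that use barttin were compared beside Bsnd. Of 5 thick limb markers none was called, with sums of 2220 to 3727 CPM in aged and 3080 to 5245 CPM in young mice. Umod, the highest of them, had a log2 fold change of -0.55 (SE 0.23, edgeR adjusted p = 0.183). Of 4 distal convoluted tubule markers none was called, with sums of 1383 to 1754 CPM in aged and 1117 to 1792 CPM in young mice. Slc12a3 made up most of these sums, at 1163 to 1327 CPM in aged and 636 to 1155 CPM in young mice. The markers differed in direction, with log2 fold changes from -1.03 to 0.47 (Slc12a3) and a median of -0.17. Groups did not overlap for 1 higher and 1 lower marker, beside 18.9% of all genes tested. Of 6 intercalated cell markers none was called, with sums of 195 to 284 CPM in aged and 237 to 290 CPM in young mice. No marker of these lists was at 0 in all libraries, and the part of segment content in the values of Bsnd was not tested.

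Outside the CLCA, anoctamin and CLC families the chloride channels of the cortex had no called member. The lists held 45 chloride channel genes and subunits reported here, of which 32 were tested. Clca1 was the only one called higher (1.17% of all genes) and none was called lower (0.889%). Unadjusted p was below 0.05 for 4 in the higher and 9 in the lower direction, where 13.4% and 12.1% of all genes passed. The groups did not overlap for 9 of the 32 (28.1%), beside 18.9% of all genes tested. Without Clca1 the median log2 fold change was -0.16. With library size in place of TMM the median of all genes moved by 0.11, from 0.03 to 0.14, so small differences are relative to that shift.

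The subunits of the volume-regulated channel had lower means in aged mice where they were abundant. Lrrc8a, the subunit every such channel needs, was 114 ± 19.8 CPM for the aged and 135 ± 8.54 CPM for the young group (± SD, n = 4 each, edgeR adjusted p = 0.256). Lrrc8b was 34.4 to 49.1 CPM in aged and 55.7 to 65.3 CPM in young mice (log2 fold change -0.41, SE 0.12, edgeR adjusted p = 0.089). Lrrc8d had a log2 fold change of -0.42 (SE 0.14, edgeR adjusted p = 0.119). The summed level of the 5 subunits was 49.4 ± 5.31 FPKM with age and 61.5 ± 1.42 FPKM in young cortex (± SD, n = 4 each).

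Tmem206, the acid-activated chloride channel, was named after its values were seen. It had 11.1, 19.95, 15.01 and 22.3 CPM in aged mice and 30.4, 31.0, 25.2 and 31.4 CPM in young mice, with no overlap. Its log2 fold change was -0.79 (SE 0.20, edgeR adjusted p = 0.0658). Leaving out aged mouse 1 brought the adjusted p to 0.0416, and leaving out aged mouse 4 to 0.0281. Over the other fits the adjusted p of Tmem206 ran from 0.006 to 0.162 and was below 0.05 in 4 of 17. Clic4, an intracellular chloride channel protein, had 214 to 321 CPM in aged and 352 to 405 CPM in young mice (log2 fold change -0.50, SE 0.13, edgeR adjusted p = 0.0684, and 0.0273 without aged mouse 4). For Clic4 the adjusted p ran from 0.00648 to 0.174 over the other fits and was below 0.05 in 3 of 17. Clic1 and Clic5, the other abundant members of that family, had log2 fold changes of -0.32 and -0.07, the latter turning to 0.03 with library size alone. The bestrophins were scarce, with Best1 and Best3 between 0.0534 and 3.57 CPM and Best2 at 10 counts over all libraries.

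**Figure D4:**
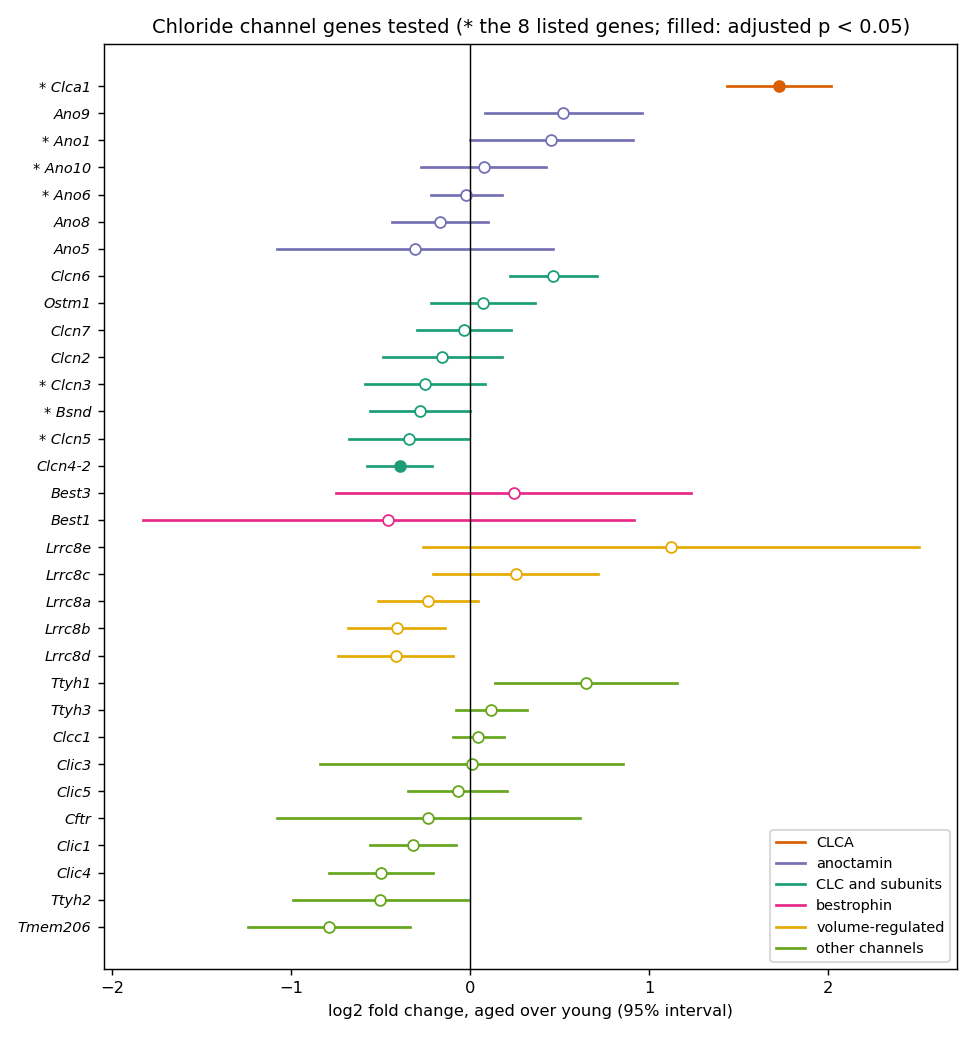
Log2 fold change, aged over young (x axis), with its 95% interval for the 32 chloride channel genes tested, coloured by family. Filled points have an adjusted p below 0.05 (Clca1 at 1.73 and Clcn4-2 at -0.39) and asterisks mark the members of the list of 8 that were tested. Clca1 has the highest estimate shown, and the next, at 1.12, has an interval that reaches below 0.

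Carriers that bring chloride across the same membranes were compared as a list. Of 19 carriers, 17 were tested, 0 were called higher and 1 was called lower (0.889% of all genes). That gene was Slc26a6, an apical exchanger of chloride for oxalate, formate and bicarbonate in the proximal tubule. It had 4.17, 5.07, 4.75 and 4.63 CPM in aged mice and 7.82, 8.14, 12.7 and 9.86 CPM in young mice. It had a log2 fold change of -1.05 (SE 0.18, edgeR adjusted p = 0.0311), and the adjusted p lay between 0.0507 and 0.107 with the replicate block and when aged mouse 2 or 3, any single young mouse or both mice 1 were left out. Slc12a3, the sodium chloride cotransporter of the distal convoluted tubule and the most abundant of the list, had a log2 fold change of 0.47 (SE 0.17, edgeR adjusted p = 0.133). The median log2 fold change of the 17 was -0.13.

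Levels between genes were compared per length, as FPKM over the union of each gene's exons. Averaged over all 8 libraries, the order was Ano6 at 27.8, Bsnd at 19.999, Clcn3 at 17.2, Ano10 at 11.9, Clcn5 at 10.9, Clca1 at 6.22 and Ano1 at 1.49 FPKM. The ranges over libraries did not overlap between Ano6 and Bsnd or between Clca1 and Ano1. All other neighbours overlapped over the libraries of both ages. Bsnd was nevertheless above Clcn3, Clcn3 above Ano10 and Clcn5 above Clca1 in 7 of the 8 libraries, while Ano10 was above Clcn5 in 3. With the length of the longest transcript, Clcn3 came to 35.9 and Clcn5 to 14.9 FPKM, which puts Clcn3 above Ano6.

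Clca1 lay closer to the genes above it in aged mice, but by group mean it was above Ano1 alone at both ages. Its mean was 2.89 ± 0.402 FPKM (SD, n = 4) in the young group, below every other gene of the 7 but Ano1 (1.26 ± 0.140 FPKM). In aged mice it was 9.54 ± 1.07 FPKM (SD, n = 4), next to Clcn5 at 9.61 ± 2.01 FPKM and still above Ano1 at 1.72 ± 0.470 FPKM. With union exon length, the values of Clca1 and Clcn5 in aged mice differed by less than the spread between mice. With the longest transcript the mean over all 8 libraries moved from 10.9 to 14.9 FPKM for Clcn5, but only from 6.22 to 6.38 FPKM for Clca1.

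**Figure D5:**
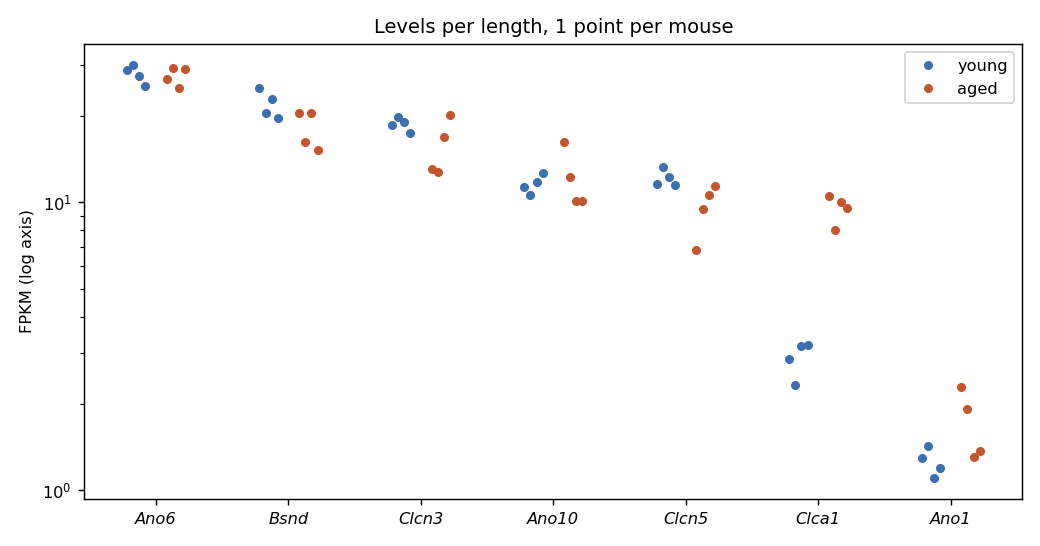
FPKM over union exon length (y axis, logarithmic) of 7 chloride channel genes, 1 point per mouse in young and aged groups, ordered by mean over 8 libraries from Ano6 (27.8 FPKM) to Ano1 (1.49 FPKM). Clca1 is the gene of those shown whose ages separate most, with means of 2.89 FPKM in young and 9.54 FPKM in aged mice.

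The genes most like Clca1 over the 8 libraries were ranked by the root mean square difference between their log2 CPM, each centred on its own mean. This is a description, since every gene of that list follows age. Ypel2 was the nearest at 0.152, with 77.6, 56.3, 52.6 and 59.1 CPM in aged and 15.5 to 19.2 CPM in young mice. It was followed by Akr1c13, an aldo-keto reductase, at 0.230 and by Ccl6, a chemokine, at 0.253. C130026I21Rik was at 0.292 and Calcr, the calcitonin receptor, at 0.294, both at under 3 CPM in each library. Their log2 fold changes ran from 1.44 (Akr1c13) to 2.62 (C130026I21Rik). All 5 were called, although Calcr lost the call with the replicate block (adjusted p = 0.0507) and without aged mouse 3 (0.0637), any single young mouse (0.0895 to 0.103) or both mice 1 (0.0651), and C130026I21Rik without any single young mouse (0.054 to 0.0648) or both mice 1 (0.0531).

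Markers of other cell types were compared for the whole cortex. Of the lists for podocytes (5 genes), blood endothelium (5), fibroblasts (5), smooth muscle (3) and principal cells (6) no marker was called. The same held for the 4 lymphatic endothelium markers tested of 7, among which Ccl21a, Ccl21b and Ccl21c were at 0 in every library. Of 4 macrophage markers tested 1 was called, and their median log2 fold change was 0.31. The called gene, Csf1r, a macrophage receptor, had the lowest log2 fold change of the list and was called lower at 23.9 to 41.7 CPM in aged and 47.7 to 75.2 CPM in young mice (log2 fold change -1.004, SE 0.22, edgeR adjusted p = 0.0472). Its adjusted p was between 0.0547 and 0.132 with the replicate block and when aged mouse 2 or 3, any single young mouse or both mice 1 were left out. The summed macrophage markers overlapped between the ages, at 47.4 to 91.8 CPM in aged and 69.4 to 103 CPM in young mice. Igj, the joining chain of plasma cell antibodies, was called higher (log2 fold change 2.65, SE 0.45, edgeR adjusted p = 0.0312), with 96.5 CPM in aged mouse 3, 31.1 to 35.9 CPM in the other aged mice and 5.28 to 13.6 CPM in young mice, and its adjusted p was between 0.072 and 0.118 without any single young mouse. The summed lymphocyte and plasma cell markers were 35.9 to 101 CPM in aged and 7.91 to 17.8 CPM in young mice. Igj made up most of that sum in each library. The ranges of the sum, like those of Clca1, did not overlap between the ages. Of the 5 markers tested only Igj had no overlap, beside 18.9% of all genes tested. The part of these cells in the values of Clca1 was not tested. Aged mouse 3, with the highest sum of these markers, had 39.0 CPM of Clca1, within the range of the other aged mice. The reference genes Gapdh and Actb had log2 fold changes of -0.08 (edgeR adjusted p = 0.605) and -0.26 (0.299), and Gapdh turned to 0.03 with library size alone.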

How the data were processed

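Total RNA from the renal cortex of 4 aged and 4 young mice was depleted of ribosomal RNA and sequenced by the authors from stranded libraries as paired ends of 100 bp. Per the labels' processing notes, CASAVA 1.8.2, TopHat2, SAMtools and HTSeq were used on mm9, and read pairs were counted by strand on RefSeq genes. The authors deposited raw counts per gene without normalization. The joint table differed from the tables per library in 0 values, its 5 rows that name no gene were left out of totals and tests, and of a library's entries 20.0% to 29.9% lay outside genes, 34.3% to 39.1% were alignments that were not unique, and 0.231% to 0.346% were ambiguous.

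Counts were tested with edgeR 4.0.16 in R 4.3.3 (quasi-likelihood, TMM, filterByExpr with a minimum count of 10, all 8 libraries, no covariate). The standard error was the log2 fold change divided by the square root of F. The DESeq of the paper's methods was replaced by this test, with DESeq2 1.42.0 and limma-voom (limma 3.58.1) as alternatives, and the FPKM criterion of the paper was not used. The ratio of Clca1 to Ano1 was compared with a pseudocount of 0.5 by exact permutation. The scripts were tested on simulated data. Lengths, positions and coding sequences came from GENCODE for NCBIM37 (45 of 45 chloride channel genes matched), copies from BLAST 2.17.0 run from Python 3.11.15, and current names from GRCm38.p6. Deviations from the group mean in aged and young mice of the same replicate number had correlations of 0.206, 0.0380, 0.199 and -0.0302. For different numbers the correlations lay between -0.300 and 0.165. Whether the numbers pair samples cannot be decided from 4 such values. The main fit used no pairing, and the replicate block is given as an alternative. No 2 libraries were duplicates.

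The 8 genes, the lists and the tests were chosen with earlier results of these data known, so none is independent of them. Genes named are the 8, other chloride channel genes past an adjusted p of 0.05, the 3 with the highest FPKM in each family, the 5 most like Clca1, called markers, carriers and endocytosis genes with the most abundant of each list, and Gapdh and Actb. Other genes were named after their values were seen, among them Clca3, Upk1b, Upk2, Upk3a and Krt5. Whether the mice were housed or processed together is not given in the sources used here, so p-values measure the spread between these mice only. RT-qPCR, immunoblots and tables of the paper were not analysed here. Alternatives were 3 scalings, 2 filters, DESeq2, limma-voom, a replicate block, each mouse left out, and other thresholds. Leaving out aged mouse 1 with young mouse 1 was added after the data were seen. A second ratio that had been planned is not reported here.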

Additional observations from a re-analysis of the deposited data

Results flagged for a closer look

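In each group of 4 mice the gap of the highest or lowest sample to its neighbour was divided by the range, and a share above 0.829 was taken as far. Of 74 groups tested 7 passed, where chance gives about 3.7. Clca2 was highest in aged mouse 1 (0.953, at 2.75 CPM), as were the summed urothelium markers (0.920, at 64.8 CPM). Lrrc8b was lowest in aged mouse 3 (0.845, at 34.4 CPM). Tmem206 was lowest in young mouse 3 (0.833, at 25.2 CPM), on the side of the aged mice. Ano4, an anoctamin with too few counts to be tested and named here after its values were seen, was highest in young mouse 1 (0.946, at 1.79 CPM). The summed lymphocyte and plasma cell markers were highest in aged mouse 3 (0.940, at 101 CPM) and, among young mice, in young mouse 1 (0.886, at 17.8 CPM). The other 7 members, Clca1 among them, had no far sample in either group by this measure.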

How the results depend on the processing

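Clca1 was the only one of the 8 genes called under every alternative, with a log2 fold change of 1.64 to 1.84. The number of genes called overall depended strongly on the fit. It was 287 in the report, 873 with DESeq2, 483 with limma-voom, 484 with library size only, 130 with the replicate block, 165 at a fold change above 2, and 51 without aged mouse 1 and young mouse 1. Leaving out 1 mouse gave 8 to 733 genes (444, 119, 115 and 733 without aged mice 1 to 4, and 8, 35, 14 and 12 without young mice 1 to 4), and the cause was not tested. With library size only, 75.4% of called genes were higher, against 56.8% with TMM. Of the chloride channel lists, 2 genes were called with DESeq2 and with limma-voom (Clca1 and Tmem206), 2 at an adjusted p alone, and 1 to 3 without 1 mouse. At an adjusted p alone DESeq2 and limma-voom each gave 6 (Clca1, Clcn4-2, Clcn6, Lrrc8b, Tmem206 and Clic4).

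The ratio of Clca1 to Ano1 kept its direction. Without aged mouse 1 and young mouse 1 its log2 difference was 1.39 (exact permutation p = 0.1, the smallest that 3 against 3 allows). As a difference within replicate numbers (the replicate block) it was 1.30 (exact p = 0.125, the smallest for 4 pairs). Leaving out 1 mouse gave 1.14 to 1.45. The block changed the call of none of the 8 genes.

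Some log2 fold changes near 0 changed sign. Ano6 was 0.0085 without both mice 1, 0.086 with library size only, 0.018 with upper-quartile scaling, and -0.066 to 0.023 without 1 mouse. Ano10 was -0.11 without both mice 1, -0.063 with limma-voom, and -0.10 to 0.15 without 1 mouse. Clic5 was 0.0011 without both mice 1, 0.035 with library size only, 0.0079 with limma-voom, and -0.13 to 0.025 without 1 mouse. Podxl was -0.00084 with the replicate block and -0.089 to 0.16 without 1 mouse, and Gapdh was 0.031 with library size only. Without 1 mouse Best3 ran from -0.14 to 0.57. Over the 44 named genes, 667 of 744 fits kept direction and side of the threshold, 42 lost it, 15 gained it and 20 changed sign. With 4 mice a group, the 95% intervals of Ano1 and Clcn3 included 0, and those of Clcn5 and Bsnd ended close to it. The level of Clcn3 was 35.9 FPKM and that of Clcn5 14.9 FPKM with the longest transcript.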
